A study of Mus musculus with 4 samples.

Results

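Genes of the lysosome were followed in the mouse microglial line BV2, an immortalised stand-in for the macrophages of the brain, after exposure to lipopolysaccharide (LPS), a bacterial wall component that the receptor TLR4 senses. The set was chosen by gene symbol and holds 44 of the 24411 symbols in the count files. Of these, 16 encode the vacuolar proton pump (V-ATPase), with 6 genes of its membrane sector V0, 8 of its cytosolic sector V1 and 2 of accessory subunits. A further 17 encode hydrolases and other proteins of the lysosomal lumen, 8 encode membrane and transport proteins, and 3 encode the transcription factors TFEB, TFE3 and MITF. All 44 symbols matched, and 43 had enough reads to be tested. The groups, with 2 libraries each of strand-specific RNA depleted of ribosomal RNA, were cells given LPS at 10 ng/ml and untreated cells. Every library is labelled BV2 with PU.1 (Spi1) knocked out by CRISPR-Cas9, so the labels give the same edit to both groups, and wild-type cells were not analysed here. The labels do not say how many edited clones were used. They give the time in LPS as 2 h in the source name and 4 h in the title, and name no culture of origin for a library, so replicates may differ for technical reasons only.

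Lysosomes digest material that a phagocyte takes up, and microglia rely on them to clear debris. The V-ATPase pumps protons across the lysosomal membrane, with V1 hydrolysing ATP and V0 conducting protons, and the acid activates the hydrolases. TFEB, TFE3 and MITF form a small family of basic helix-loop-helix factors that enter the nucleus when the kinase complex mTORC1 is inactive. They bind the E-box CACGTG, most strongly within the longer CLEAR element found before many lysosomal genes.

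Gene counts totalled 3256197 and 3749159 in the LPS libraries and 4502105 and 4115011 in the untreated libraries. Spi1, the gene named as knocked out, had 745 and 958 reads in the LPS libraries, against 844 and 743 in the untreated ones. Its level was 258 and 291 CPM (reads scaled to a common total) after LPS and 161 and 164 CPM untreated, a 1.69-fold rise (edgeR adjusted p = 8.77e-10). Spi1 transcript was thus present in every library labelled as edited, and gene counts cannot check that label. Reads in no annotated feature were 59.1% and 57.4% of uniquely placed reads in LPS libraries and 53.0% and 51.8% in untreated ones, and the part of this in the results was not tested. Of 11 microglial and macrophage markers 10 could be tested, with 7 higher and 2 lower after LPS, where 26.6% and 25.3% of all genes were. Among those higher, Aif1 and Cx3cr1 had enough reads to be tested only with the help of the LPS libraries. Aif1 had 12 and 10 reads after LPS and 9 and 6 untreated, and Cx3cr1 25 and 33 after LPS and 22 and 10 untreated. The marker P2ry12 was near 0 (0.173 CPM after LPS and 1.92 CPM untreated, means of 2 libraries). Of 29 markers of 6 other cell types, 23 had no read in any library, and their summed level was 2.08 and 1.82 CPM in the LPS and 0.574 and 0.442 CPM in the untreated libraries. Of 6 endothelial markers 3 had no read, and the 6 summed to 49.9 and 34.0 CPM in LPS libraries and 22.8 and 23.2 CPM in untreated ones. The part of these markers in the results was not tested.

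Members of the set moved in both directions, with more of them higher than lower. At an edgeR quasi-likelihood adjusted p below 0.05 over all 9992 genes tested, 29 of the 43 tested members changed (67.4%), against 51.9% of all genes. Higher after LPS were 18 members (41.9%), against 26.6% of all genes. Lower were 11 members (25.6%), which is near the 25.3% of all genes and is no result about the set. The median log2 fold change of LPS over untreated was 0.14 over the tested members and 0.0006 over all genes. Past a 2-fold change were 4 members higher (Atp6v0d2, Mitf, Glb1, Cd63) and 3 lower (Man2b1, Tfeb, Grn), shares near the 9.47% and 7.73% of all genes and no result about the set. The CPM values use the library size scaled by TMM (trimmed mean of M-values), a scaling that assumes most genes are stable. On this scale both LPS libraries lay above both untreated ones in 37.5% of all tested genes and below both in 37.6%. A lack of overlap between the groups is therefore common and adds little to a call. In bulk RNA such as this, fewer cells of a type and less RNA per cell cannot be told apart.

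The direction of small changes rests on that scaling. With library size alone as the scale, all genes had a median log2 fold change of -0.36 and the called genes split into 22.4% higher and 77.6% lower, against 51.3% and 48.7% with TMM. Under it 11 members were higher and 20 lower. The share higher was 25.6%, beside 13.8% of all genes, and the share lower was 46.5%, beside 47.8% of all genes. Across TMM, RLE, upper quartile and library size scaling, GC correction and DESeq2, 17 members kept their call and direction. The 11 higher ones were Atp6v0a1, Atp6v0d2, Atp6v0e, Atp6v1e1, Atp6v1h, Lamp2, Cd63, Npc2, Glb1, Hexa and Mitf, and the 6 lower ones Atp6v0d1, Npc1, Grn, Man2b1, Tpp1 and Tfeb. Without untreated replicate 2, the median log2 fold change was 0.13 over the members and -0.0043 over all genes. In a fit without a library the lone library of its group is assumed to vary like the other group.

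**Figure D1:**
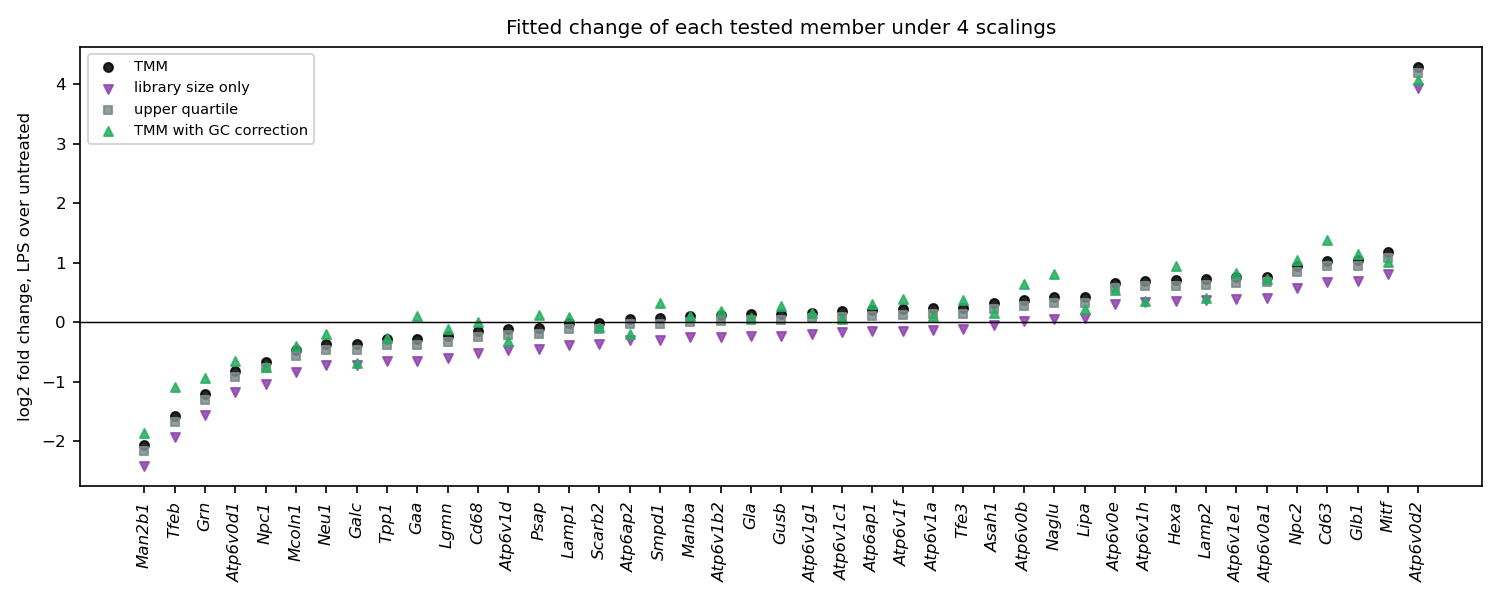
Fitted log2 fold change (vertical axis, LPS over untreated) of the 43 tested members in order of the TMM value, under TMM, library size only, upper quartile and TMM with GC correction. Library size alone sits below TMM throughout, while members at both ends keep their direction under all 4 scalings.

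The 3 transcription factors went different ways. Tfeb, which encodes the best known activator of lysosomal genes, had 6.58 and 7.89 CPM in LPS libraries, against 24.1 and 19.0 CPM in untreated libraries. Both LPS libraries lay below both untreated ones, and the log2 fold change was -1.57 (SE 0.24, edgeR adjusted p = 1.91e-07), a level 33.7% of the untreated. These values rest on 19 and 26 reads after LPS and 126 and 86 without. Mitf, known for its part in pigment cells, osteoclasts and macrophages, had 85.3 and 79.2 CPM in LPS libraries, against 37.5 and 35.2 CPM in untreated libraries. The groups did not overlap, and Mitf rose 2.26-fold (log2 fold change 1.17, SE 0.12, edgeR adjusted p = 2.75e-11). Tfe3, the third factor, had 30.8 and 34.3 CPM after LPS and 25.1 and 30.5 CPM untreated and did not pass (log2 fold change 0.24, SE 0.16, edgeR adjusted p = 0.200). Tfe3 passed with GC correction (log2 fold change 0.37, edgeR adjusted p = 0.0419) and was at -0.12 with library size alone. With Tfec, the remaining relative, the family can be set side by side per kilobase of the longest GENCODE transcript. Tfeb made up 7.07% and 8.17% of the summed level of the family in LPS libraries and 36.6% and 30.7% in untreated ones. Mitf made up 43.9% and 39.3% in LPS libraries and 27.3% in each untreated one. Tfec made up 36.8% and 39.4% in LPS libraries and 22.1% and 23.8% in untreated ones. The summed level per length was 39.8 and 41.3 CPM per kb after LPS and 28.1 and 26.4 CPM per kb untreated.

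**Figure D2:**
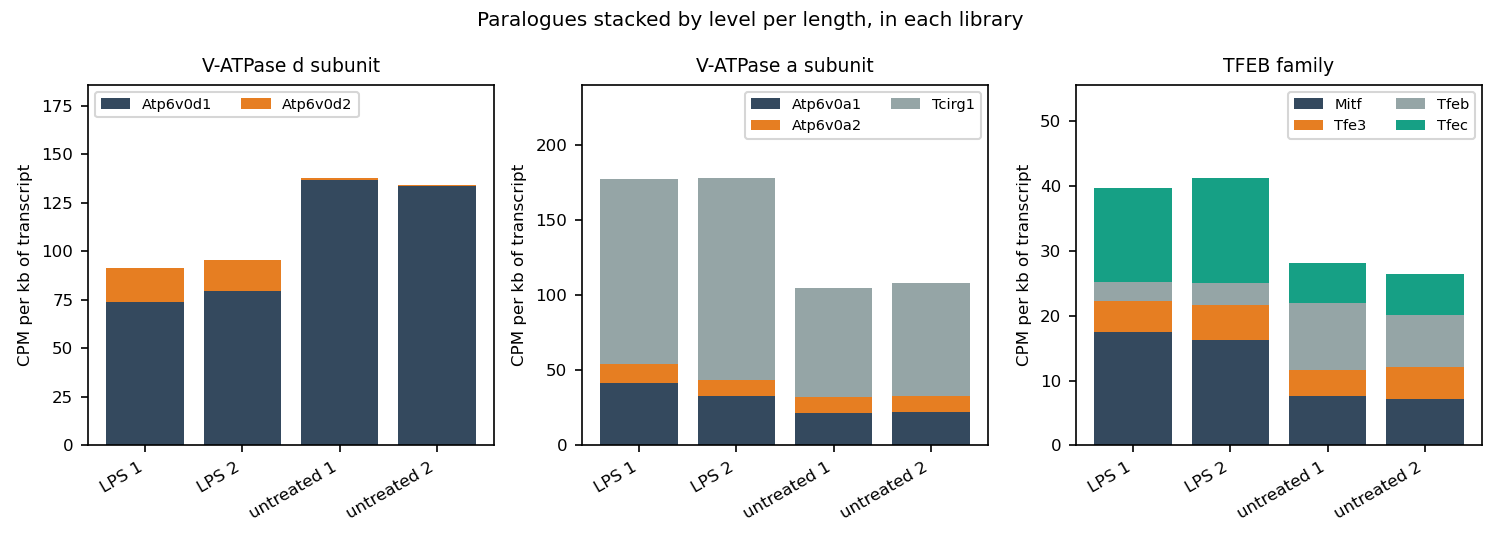
Level per length (CPM per kilobase of the longest GENCODE transcript) of the paralogues of the V-ATPase d subunit, the V-ATPase a subunit and the TFEB family, stacked in each of the 2 LPS and 2 untreated libraries. Atp6v0d2 and Mitf take a larger part of their bars in the LPS libraries and Tfeb a smaller part.

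Because these factors bind E-boxes, the promoters of the members were searched for the site. RefSeq promoter windows (GRCm38.p6, 250 bases before to 50 after each start) were found for 37 members and not for Atp6v0d2, Atp6v1b2, Atp6v1c1, Atp6v1g1, Atp6v1h, Npc1 and Asah1. The E-box CACGTG, which reads the same on both strands, was in a window of 11 of the 37 members (29.7%), against 12.5% of the 7703 tested genes with a window and 7.15% of all 32851 windows. Its extension TCACGTGA, also a palindrome and holding the E-box, was in 5 members (13.5%), against 2.48% of tested genes and 0.974% of windows. The CLEAR palindrome, which adds a G before and a C after TCACGTGA, was in none of the 37 members and in 0.961% of tested genes and 0.326% of windows. A match is a run of letters and not shown to be bound. The stretches around TCACGTGA, in capitals, are shown because the genes that hold them did not share a direction.
Atp6v0d1, chr8:105566035-105566094, minus strand: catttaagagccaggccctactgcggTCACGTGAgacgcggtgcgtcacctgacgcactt
Mcoln1, chr8:3500447-3500506, plus strand: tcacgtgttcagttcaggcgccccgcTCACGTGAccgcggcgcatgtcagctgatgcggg
Atp6v0e, chr17:26676372-26676431, plus strand: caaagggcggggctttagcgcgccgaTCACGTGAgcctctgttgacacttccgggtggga
Atp6v1a, chr16:44139358-44139417, minus strand: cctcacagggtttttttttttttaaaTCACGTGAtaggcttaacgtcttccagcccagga
Gla, chrX:134601167-134601255, minus strand: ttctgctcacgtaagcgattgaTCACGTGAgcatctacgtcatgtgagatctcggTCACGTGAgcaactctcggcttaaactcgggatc

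Of these 5 genes, Atp6v0d1 and Mcoln1 fell, Atp6v0e and Atp6v1a rose, and Gla did not pass, and their values stand with each class. The Atp6v1a rise was lost under upper quartile scaling and GC correction. Among the 11 tested members with the E-box, 5 rose and 4 fell, with a median log2 fold change of 0.13. Among the 25 tested members with a window and no E-box, 9 rose and 6 fell, with a median of 0.11. Over all genes 26.6% rose and 25.3% fell, and the difference between members with and without the E-box was not tested.

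The V-ATPase genes were mostly higher after LPS, with Atp6v0d1 as the exception. Of 15 tested genes, 9 rose (60%, against 26.6% of all genes) and 1 fell (6.67%, against 25.3% of all genes). The median log2 fold change was 0.22, against 0.0006 over all genes. With library size alone 5 rose and 4 fell, where 13.8% of all genes rose and 47.8% fell. Atp6v0c, which encodes the proteolipid of the proton-conducting ring, had 0 and 3 reads in the LPS libraries and none in the untreated ones, and was not tested. Such count tables hold uniquely placed reads, and the files also list a pseudogene, Atp6v0c-ps2, without a read, so the level of Atp6v0c is uncertain.

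Among the tested members the largest log2 fold change was that of Atp6v0d2, and its paralogue Atp6v0d1 went the other way. Both encode subunit d, which joins the central stalk to the V0 ring. Atp6v0d2, the form known from osteoclasts and macrophages, had 44.4 and 41.0 CPM in LPS libraries, against 2.49 and 1.77 CPM in untreated libraries. Every LPS value was far above every untreated one, and the fitted fold was 19.5 (log2 fold change 4.29, SE 0.24). This rests on 128 and 135 reads after LPS and 13 and 8 without. Atp6v0d2 passed the count filter only with the help of the LPS libraries, and counts of called members that include it carry this limit. Under a filter of 1 CPM in 2 libraries, which its untreated values also met, the log2 fold change was 4.28 (edgeR adjusted p = 1.21e-25). Atp6v0d1, the widespread form, had 120 and 130 CPM in LPS libraries, against 223 and 217 CPM in untreated libraries. It fell to 56.8% of its untreated level (log2 fold change -0.82, SE 0.09, edgeR adjusted p = 2.85e-10), with no overlap. Per length, Atp6v0d2 made up 19.1% and 16.9% of the d subunit level in LPS libraries and 0.711% and 0.519% in untreated ones. The sum of both forms per length was 91.3 and 95.7 CPM per kb after LPS and 138 and 134 CPM per kb untreated, so that the sum was lower in both LPS libraries.

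The other V0 genes rose. Atp6v0a1, a form of the a subunit that lines the proton path, had 172 and 138 CPM in LPS libraries, against 89.1 and 92.4 CPM in untreated libraries (log2 fold change 0.77, SE 0.10, edgeR adjusted p = 2.73e-08). Atp6v0e, which encodes a small membrane subunit, had 186 and 230 CPM after LPS and 120 and 143 CPM untreated (log2 fold change 0.67, SE 0.10, edgeR adjusted p = 1.76e-06). Neither gene's groups overlapped. Atp6v0b, a second proteolipid gene of the ring, rose 1.30-fold (edgeR adjusted p = 0.000256), although its log2 fold change was 0.018 with library size alone (edgeR adjusted p = 0.887). Tcirg1, the a subunit form that osteoclasts need and not a member of the set, held 69.4% and 75.6% of the a subunit level per length in LPS libraries and 69.2% and 69.4% in untreated ones. Its level was 375 and 410 CPM in LPS libraries and 221 and 228 CPM in untreated ones, a 1.75-fold rise (edgeR adjusted p = 3.60e-11).

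In the V1 sector 4 of 8 genes rose (50%, against 26.6% of all genes) and 4 did not pass, and of the 4 that rose Atp6v1a and Atp6v1c1 did not keep the call under every alternative. Atp6v1e1, a subunit of the peripheral stalks, had 165 and 183 CPM in LPS libraries, against 104 and 102 CPM in untreated libraries (log2 fold change 0.75, SE 0.10, edgeR adjusted p = 4.35e-09). Atp6v1h, a regulatory subunit that couples the sectors, had 281 and 319 CPM after LPS and 193 and 177 CPM untreated (log2 fold change 0.70, SE 0.09, edgeR adjusted p = 5.90e-09). For Atp6v1h the groups did not overlap, and the log2 fold change was 0.36 after GC correction and 0.34 with library size alone, and passed in both. The catalytic subunit gene Atp6v1a, the most counted V-ATPase gene, had 664 and 716 CPM in LPS libraries, against 612 and 559 CPM in untreated libraries. Its log2 fold change was 0.24 (SE 0.08, edgeR adjusted p = 0.0133), and -0.12 with library size alone. Atp6v1c1, a stalk subunit, had 495 and 523 CPM after LPS and 462 and 429 CPM untreated (log2 fold change 0.19, SE 0.08, edgeR adjusted p = 0.0469). These groups did not overlap, but the changes are small. The Atp6v1a call was lost without untreated replicate 2 (log2 fold change 0.17), with upper quartile scaling (0.14) and after GC correction (0.11). The Atp6v1c1 call was lost without LPS replicate 2 (0.15), untreated replicate 1 (0.24) or untreated replicate 2 (0.13), with DESeq2 (0.19), with upper quartile scaling (0.096) and after GC correction (0.058). It was also lost under both other count filters and without 5 abundant entries, and the Atp6v1c1 value was -0.17 with library size alone. Atp6v1b2, Atp6v1d, Atp6v1f and Atp6v1g1 had log2 fold changes of -0.11 (Atp6v1d) to 0.22 (Atp6v1f). Without LPS replicate 1, Atp6v1f and Atp6v1g1 passed as higher (log2 fold changes 0.36 and 0.29), and Atp6v1f did so after GC correction (0.39). Atp6v1b2 passed as higher after GC correction (0.20) and as lower with library size alone (-0.24). Atp6v1d passed as lower with GC correction (-0.31) and with library size alone (-0.47). Of the accessory genes, Atp6ap1 rose 1.15-fold (edgeR adjusted p = 0.0356), and Atp6ap2, the prorenin receptor, was at 1.04-fold and did not pass, although it passed as lower with library size alone (log2 fold change -0.30). The Atp6ap1 call was lost without untreated replicate 1 (log2 fold change 0.23) or 2 (0.17), with DESeq2 (0.20) and with upper quartile scaling (0.11), and the value was -0.15 with library size alone.

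**Figure D3:**
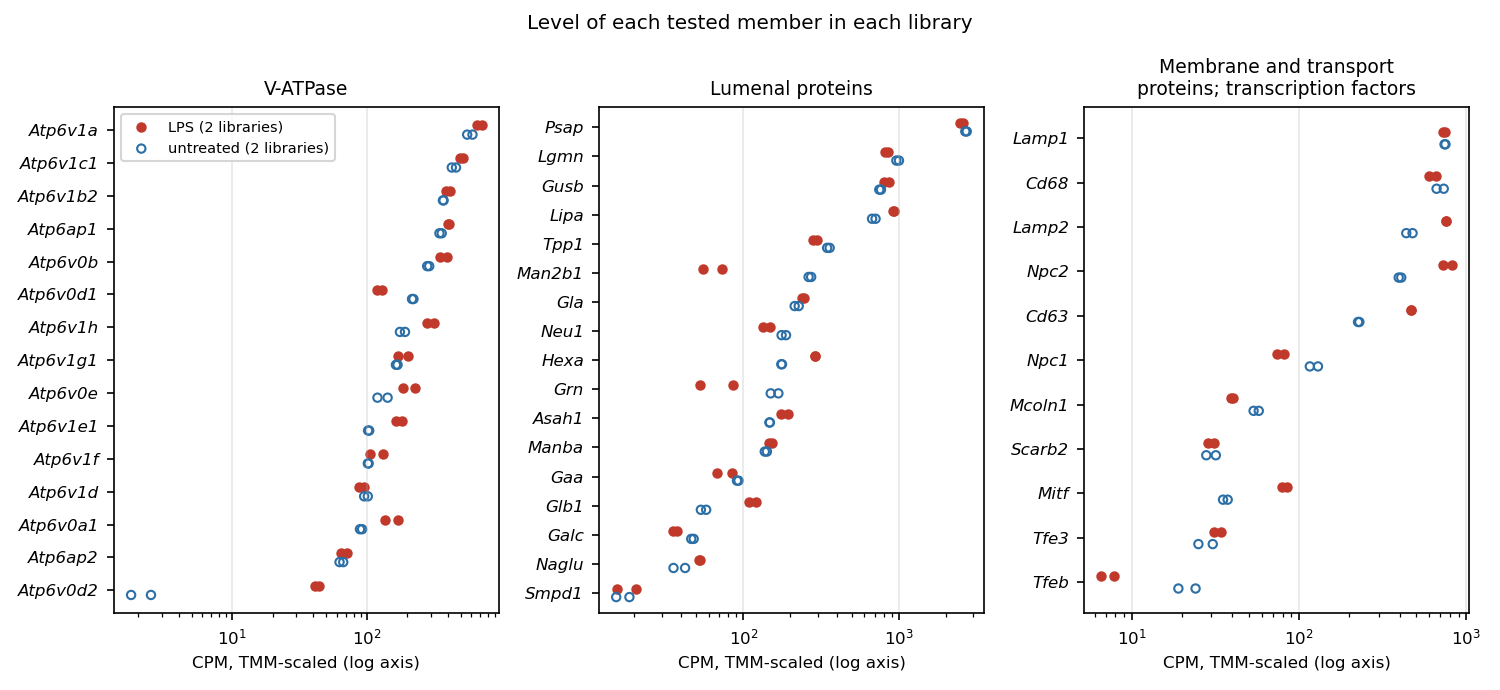
Level of the 43 tested members in each library (CPM on the TMM-scaled library size, log axis), LPS as filled and untreated as open points, in 3 panels by role. The LPS and untreated points of Atp6v0d2, Man2b1, Tfeb, Mitf and Cd63 lie clearly apart, while Psap is the highest in every library.

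The lumenal proteins split, with 5 of 17 higher and 7 lower. Their median log2 fold change was 0.069, against 0.0006 over all genes, and 41.2% were lower against 25.3% of all genes. The 29.4% that were higher is near the 26.6% of all genes and is no result about this class. The number lower was 4 after GC correction, a share near the 22.5% of all genes that were lower there. It was also smaller without either untreated library. The number higher was 2 with library size alone, where 13.8% of all genes were higher, and was also smaller without untreated replicate 2.

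The falls were led by Man2b1, the lysosomal alpha-mannosidase that trims glycans. Man2b1 had 73.5 and 55.3 CPM in LPS libraries, against 263 and 273 CPM in untreated libraries. It fell to 23.9% of its untreated level (log2 fold change -2.06, SE 0.11, edgeR adjusted p = 4.90e-21), with a wide gap between the groups. Grn encodes progranulin, a secreted and lysosomal protein whose loss in humans causes neurodegeneration. Grn had 86.3 and 52.8 CPM in LPS libraries, against 168 and 150 CPM in untreated libraries. It fell to 43.3% (log2 fold change -1.21, SE 0.19, edgeR adjusted p = 0.00108), with the LPS libraries further apart than the untreated ones. Without LPS replicate 1 its log2 fold change was -1.59, and without LPS replicate 2 it was -0.88. The precursor of the sphingolipid activator proteins, Psap, is known to carry progranulin to lysosomes. Psap, the member with the highest CPM, had 2481 and 2565 CPM in LPS libraries, against 2665 and 2722 CPM in untreated libraries. The groups did not overlap, yet the difference did not pass (log2 fold change -0.094, SE 0.08, edgeR adjusted p = 0.319). Psap passed as lower with upper quartile scaling (-0.19) and library size alone (-0.45), and was at 0.12 after GC correction.

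Of the other falls, Lgmn, the asparaginyl endopeptidase, had 809 and 855 CPM in LPS libraries, against 961 and 999 CPM in untreated libraries. Its log2 fold change was -0.24 (SE 0.08, edgeR adjusted p = 0.0116), a small fall without overlap. Neu1, the sialidase, fell to 77.7% of its untreated level, Galc, the galactosylceramidase, to 77.7%, Tpp1, a tripeptidyl peptidase, to 82.0% and Gaa, the acid alpha-glucosidase, to 82.1%. These falls were smaller than those of Man2b1 and Grn. Calls for Gaa, Galc and Lgmn were lost without untreated replicate 1 (log2 fold changes -0.31, -0.40 and -0.27) and without untreated replicate 2 (-0.28, -0.35 and -0.22). The Gaa and Galc calls were also lost without LPS replicate 2 (-0.13 and -0.32) and with DESeq2 (-0.29 and -0.37), and Tpp1 lost its call without untreated replicate 2 (-0.27). After GC correction Neu1 and Lgmn did not pass (-0.20 and -0.12), and Gaa was at 0.10.

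Among the rises were 2 genes whose enzymes act in turn on the ganglioside GM1. Glb1, the beta-galactosidase that opens GM1 breakdown, had 121 and 109 CPM in LPS libraries, against 53.4 and 57.7 CPM in untreated libraries. It rose 2.07-fold (log2 fold change 1.05, SE 0.11, edgeR adjusted p = 4.56e-11), without overlap. Hexa, the alpha subunit of the hexosaminidase that follows, had 287 and 291 CPM after LPS and 175 and 177 CPM untreated (log2 fold change 0.71, SE 0.09, edgeR adjusted p = 1.94e-09). Lipa, the acid lipase that frees cholesterol from its esters, had 920 and 934 CPM in LPS libraries, against 707 and 671 CPM in untreated libraries (log2 fold change 0.43, SE 0.08, edgeR adjusted p = 1.21e-05). Naglu, a heparan sulfate glucosaminidase, had 53.0 and 51.6 CPM after LPS and 42.3 and 35.6 CPM untreated (log2 fold change 0.42, SE 0.13, edgeR adjusted p = 0.00690). Asah1, the acid ceramidase, rose 1.25-fold (edgeR adjusted p = 0.00349). All 5 had LPS libraries above untreated ones, as did 37.5% of all genes. With library size alone Lipa and Naglu did not pass (log2 fold changes 0.069 and 0.061) and Asah1 was at -0.039. Naglu lost its call without untreated replicate 2 (0.30) and with DESeq2 (0.42), and Asah1 without untreated replicate 1 (0.31) or 2 (0.32), with DESeq2 (0.31) and after GC correction (0.15). The remaining Gusb, Gla, Manba and Smpd1 did not pass, with log2 fold changes of 0.069 (Smpd1) to 0.14 (Gusb). Gusb, the beta-glucuronidase, passed as higher without LPS replicate 1 (0.19) and after GC correction (0.27), and as lower with library size alone (-0.22). Manba also passed as lower with library size alone (-0.25).

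**Figure D4:**
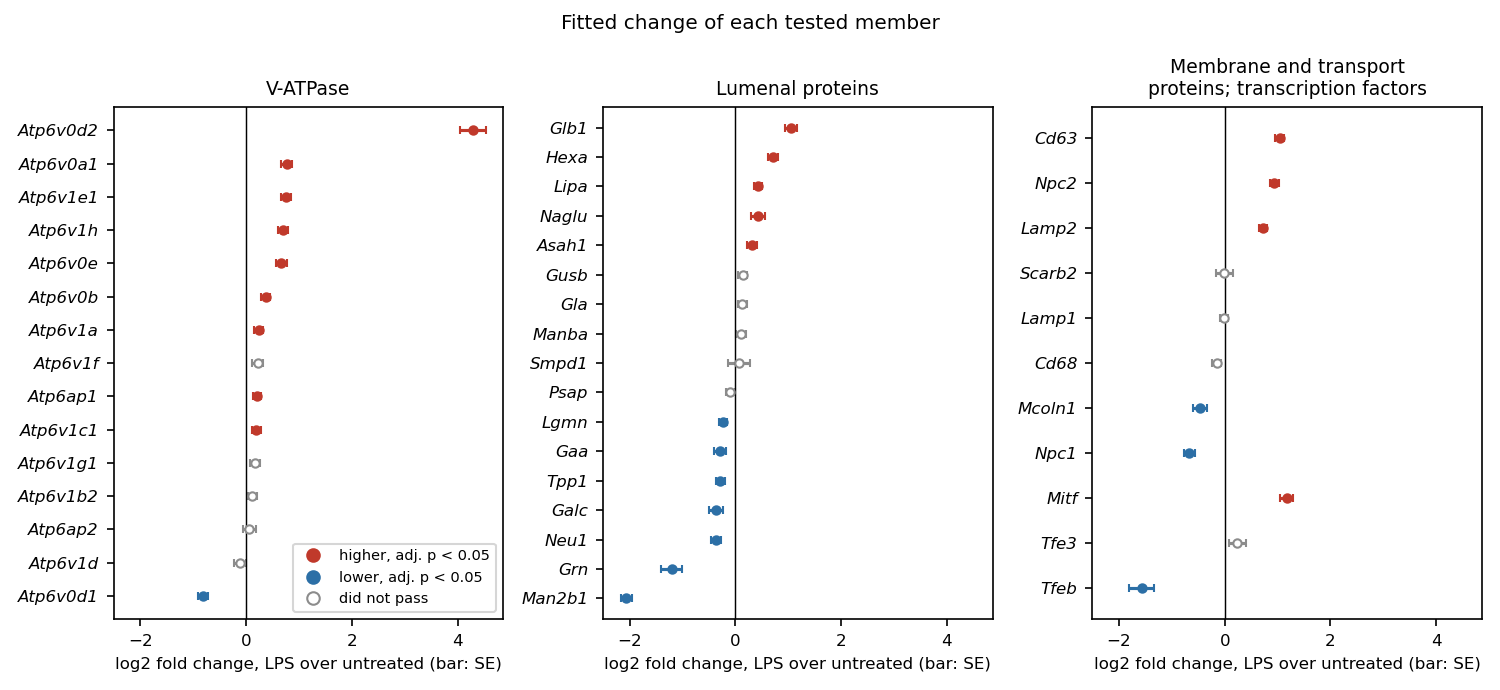
Fitted log2 fold change of LPS over untreated (horizontal axis) with its SE for the 43 tested members, in 3 panels by role. Filled points passed an edgeR adjusted p below 0.05. On the higher side 9 of the 15 V-ATPase points (60%) and 5 of the 17 lumenal points (29.4%) are filled, against 26.6% of all genes.

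Among the 8 membrane and transport proteins 3 rose (37.5%, against 26.6% of all genes), 2 fell (25%, near the 25.3% of all genes) and 3 did not pass. With library size alone 5 of the 8 were called lower, where 47.8% of all genes were. Cd63, a tetraspanin of late endosomes and lysosomes, had 469 and 465 CPM in LPS libraries, against 225 and 230 CPM in untreated libraries. It rose 2.05-fold (log2 fold change 1.04, SE 0.08, edgeR adjusted p = 6.67e-15), with replicates close together and no overlap. The Niemann-Pick pair moved apart. Npc2, the lumenal protein that takes up cholesterol, had 721 and 820 CPM in LPS libraries, against 395 and 408 CPM in untreated libraries (log2 fold change 0.94, SE 0.08, edgeR adjusted p = 1.07e-13). Npc1, the membrane protein to which it hands cholesterol, had 81.8 and 73.5 CPM in LPS libraries, against 130 and 116 CPM in untreated libraries (log2 fold change -0.67, SE 0.11, edgeR adjusted p = 9.85e-07). Per length, Npc1 made up 6.10% and 4.89% of the sum of both in LPS libraries and 15.87% and 14.01% in untreated ones.

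The LAMP proteins, the most abundant glycoproteins of the lysosomal membrane, also differed. Lamp2 had 757 and 759 CPM in LPS libraries, against 478 and 438 CPM in untreated libraries (log2 fold change 0.73, SE 0.08, edgeR adjusted p = 1.37e-10), without overlap. Lamp1 had 724 and 750 CPM after LPS and 751 and 741 CPM untreated (log2 fold change -0.018, SE 0.08, edgeR adjusted p = 0.866), with overlap. Lamp2 held 39.3% and 38.5% of the LAMP level per length in LPS libraries and 28.2% and 26.8% in untreated ones. Lamp1 passed as lower with library size alone (-0.38) and was at 0.097 after GC correction. Cd68, a LAMP-like protein of phagocytes, had 598 and 659 CPM after LPS and 664 and 733 CPM untreated and did not pass (log2 fold change -0.15, SE 0.08, edgeR adjusted p = 0.121). Cd68 passed as lower without LPS replicate 2 (-0.22), with upper quartile scaling (-0.25) and with library size alone (-0.51), and was at 0.0083 after GC correction. Mcoln1, the calcium channel TRPML1, had 39.5 and 40.4 CPM in LPS libraries, against 53.5 and 57.5 CPM in untreated libraries (log2 fold change -0.47, SE 0.13, edgeR adjusted p = 0.00215). Its groups did not overlap, but with DESeq2 its log2 fold change of -0.48 did not pass (DESeq2 adjusted p = 0.0750). Scarb2, the receptor that brings glucocerebrosidase to lysosomes, had 30.8 and 28.5 CPM after LPS and 27.9 and 31.8 CPM untreated and did not pass. It passed as lower with library size alone (-0.36).

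Per length of the longest GENCODE transcript, the order of the members changed little at the top. Gene counts do not show which transcript was in use, so ranks and shares between genes per length depend on that choice. Psap was first with 950 ± 22.5 CPM per kb after LPS and 1014 ± 15.2 CPM per kb untreated (SD, n = 2 each). Cd68 followed with 511 ± 35.4 CPM per kb after LPS and 568 ± 39.5 CPM per kb untreated, and the Lgmn values were 418 ± 16.4 CPM per kb after LPS and 493 ± 13.6 CPM per kb untreated. The Psap and Cd68 values lay far apart in both groups, and those of Cd68 and Lgmn by more than their SD. Man2b1 was at rank 35 of 43 in LPS libraries and rank 20 in untreated ones, and Tfeb at rank 43 in LPS libraries and 38 in untreated ones. Atp6v0d2 was at rank 36 in LPS libraries and last in untreated ones, and Cd63 at rank 13 in LPS libraries and 19 in untreated ones.

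Genes outside the set that serve the same organelle were called in both directions, as were all genes (26.6% higher and 25.3% lower). Of 20 other V-ATPase subunits and assembly factors 12 could be tested, with 3 higher and 1 lower. Ncoa7, which binds the pump, rose 2.33-fold and the assembly factor gene Tmem199 1.55-fold, while Rogdi, a regulator of assembly, was at 5.89 and 7.29 CPM after LPS and 13.96 and 12.61 CPM untreated. The Rogdi log2 fold change was -1.003 (SE 0.27, edgeR adjusted p = 0.00137), and it did not pass with DESeq2 (DESeq2 adjusted p = 0.0798). Without LPS replicate 1, 3 genes of this list were lower. Of 31 tested genes of other hydrolases, their activators and sorting, 12 rose and 9 fell, with a median log2 fold change of 0.11. Acp2, an acid phosphatase, rose 2.89-fold, and Sgsh, a heparan sulfate sulfamidase, fell (log2 fold change -1.71, SE 0.28). Epdr1 and Scpep1 fell as well (-1.56 and -0.97). Epdr1 had only 7 and 4 reads after LPS and 29 and 23 untreated, and passed the count filter only with the help of the untreated libraries. Without untreated replicate 1, 7 genes of this list rose, and without untreated replicate 2, 5 fell.

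Among other membrane and transport proteins of the lysosome the balance was the reverse, with 13 of 29 tested genes lower and 8 higher, where 25.3% and 26.6% of all genes were lower and higher, and a median of -0.17. Slc15a3, a peptide and histidine transporter, had 750 and 731 CPM in LPS libraries, against 48.4 and 51.8 CPM in untreated libraries, a 14.8-fold rise (log2 fold change 3.89, SE 0.10, edgeR adjusted p = 4.06e-35). Clcn7, the chloride-proton exchanger that works with the pump, rose 2.63-fold. The calcium and sodium channel gene Tpcn1 and the cystine exporter gene Ctns fell (log2 fold changes -1.65 and -1.59). Without untreated replicate 1 or 2, 5 genes of this list rose. Of 25 tested genes that act on the TFEB family, 6 rose and 5 fell, shares near the 26.6% and 25.3% of all genes. Tfec, whose share is given above, rose 2.48-fold and Fnip1, a partner of folliculin, 2.16-fold. Tsc2, a brake on mTORC1, and Rragd, a Rag GTPase, fell (log2 fold changes -1.57 and -1.30). Without untreated replicate 2, 2 genes of this list rose.

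GC content moved with the changes across all genes. Genes were put into 5 equal bins by GC content. In the bin of 29.6% to 43.6% GC the median log2 fold change was 0.28, and in the bin of 55.2% to 72.5% it was -0.31. The 9 members in the lowest bin had a median of 0.43, with 6 higher and 1 lower, and the 7 in the highest bin had 0.069, with 3 higher and 3 lower. The median GC content was 50.4% in the tested members and 49.3% in all tested genes with a transcript. After GC correction 19 members were higher (44.2%, against 26.9% of all genes) and 9 lower (20.9%, near the 22.5% of all genes). Tfeb, the member with the highest GC content, was at -1.09, Grn at -0.94, Man2b1 at -1.86 and Atp6v0d2 at 4.06 on the log2 scale, and all 4 passed. The correction also moved Naglu to 0.81, Atp6v0b to 0.64, Galc to -0.68 and Lamp2 to 0.42, and these passed as well.

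**Figure D5:**
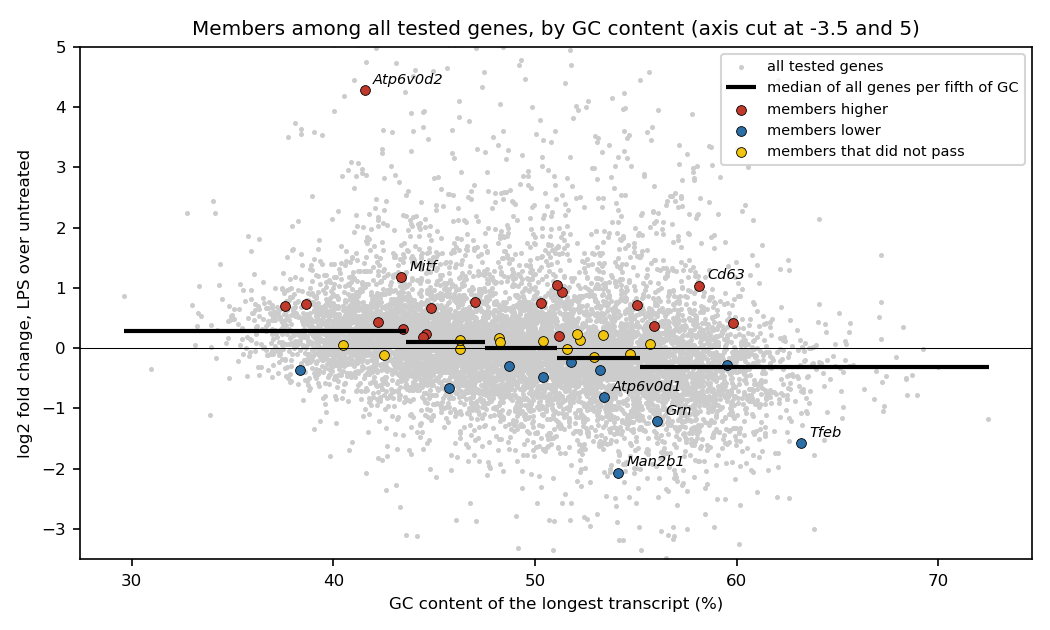
Log2 fold change of LPS over untreated against GC content of the longest transcript (%) for all tested genes (grey) and the 43 tested members, coloured by call, with the median of all genes in each of 5 GC bins as bars. The bars step down from 0.28 to -0.31, and Man2b1, Grn, Tfeb, Cd63 and Atp6v0d2 lie away from them.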

How the data were processed

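RNA depleted of ribosomal RNA was made into directional paired-end libraries, per the labels' protocols. Tools in the submitters' processing notes are STAR 2.5.1, Trimmomatic 0.33, CASAVA 1.8.2 and DESeq2, and the build there is hg19, while the deposited files list mouse symbols. The build and annotation behind the counts are not given in the sources used here. The deposited values are whole-number read counts for each gene as STAR writes them, and the last column was taken, which held 78.7 to 95.3 times the reads of the opposite strand. The 4 summary lines of each file stayed out of library sizes. Reads in no feature were 59.1% and 57.4% of uniquely placed reads in LPS libraries and 53.0% and 51.8% in untreated libraries, and Rn45s took 20.9% and 20.0% against 14.6% and 19.0% of gene counts.

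From the counts, 9992 of 24411 genes passed filterByExpr and were fitted with edgeR 4.0.16 in R 4.3.3 (TMM, robust quasi-likelihood, treatment only), with Benjamini-Hochberg adjustment over all of them and a threshold of 0.05. The SE is the absolute log2 fold change over the root of the F statistic, an approximation. Replicates differed beyond counting noise (chi-square per degree of freedom 2.44 in LPS and 1.52 in untreated libraries). Alternatives were RLE, upper quartile and library size scaling, DESeq2 1.42.0, other filters, unstranded counts, a replicate block, GC-corrected offsets, removal of 5 abundant entries and leaving out each library. The fitting was tested on simulated data with 200 changed genes, far fewer than were called here. The simulation therefore does not test the TMM assumption that most genes are stable. GC and length come from the longest GENCODE vM21 transcript of each symbol.

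Members and lists were chosen with earlier results of these data known. Values per library are given for up to 6 called members of each class with the largest absolute log2 fold change, the 2 most counted members of each class and the 3 transcription factors, and up to 4 called genes are named from each other list. Tfe3, Spi1, P2ry12 and members named for a lost or gained call are further names. With 2 libraries a group, p-values rest on the spread between these libraries. For each gene the fit draws that spread towards a trend shared by all tested genes.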

Additional observations from a re-analysis of the deposited data

Results flagged for a closer look

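Reads on the strand opposite to the gene were counted in the column not used for the comparisons. In it 757 genes could be tested, and after LPS 19.3% of these rose and 15.7% fell (edgeR adjusted p below 0.05), and 3 of the 757 were members. Of the 36 members with such a read, 33 had a higher share of them among their stranded reads after LPS and 3 a lower one. The same count was not made over all genes, so this is no result about the set. Some of these shares rest on very few reads, as for Mcoln1 with 1 and 0 reads in LPS libraries. Others come mainly from LPS replicate 2, as for Psap with 4 and 29 reads in LPS libraries and 1 and 5 in untreated ones. For Npc2 the opposite strand held 18 and 52 reads in LPS libraries, against 13 and 7 reads in untreated libraries. The ratio per scaled library size was 5.17 (exact 95% interval 3.11 to 8.97, counting error only). These reads were 1.44% of the stranded Npc2 count after LPS and 0.509% without. Npc2 passed the count filter only with the help of the LPS libraries, so the ratio is given as a description with no test. Much of the ratio came from LPS replicate 2, without which it was 2.95, a setting chosen after seeing the data. For Lipa the opposite strand held 10 and 12 reads in LPS libraries, against 0 and 1 in untreated libraries. The Lipa ratio of 32.5 (exact 95% interval 5.25 to 1340) rests on a single untreated read, and the gene passed the count filter through the LPS libraries alone, so it is given as a description with no test. Npc1, the third member, did not pass (edgeR adjusted p = 0.671). The direction of the Npc2 and Lipa changes was the same with unstranded counts.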

How the results depend on the processing

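With 2 libraries a group and members such as Tfeb at 19 reads in a library, small differences were not resolved at this depth, and a member that did not pass is not shown to be unchanged. Of 602 member values under the alternatives, 519 kept direction and side of the threshold, 40 lost the call, 16 gained it and 27 turned direction; the cause was not tested. Of the 27, Atp6v1b2, Atp6ap2, Gusb and Manba passed as lower with library size alone.

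With library size alone the log2 fold change turned for Atp6v1a (-0.12), Atp6v1b2 (-0.24), Atp6v1c1 (-0.17), Atp6v1f (-0.14), Atp6v1g1 (-0.19), Atp6ap1 (-0.15), Atp6ap2 (-0.30), Gusb (-0.22), Gla (-0.23), Asah1 (-0.039), Smpd1 (-0.29), Manba (-0.25) and Tfe3 (-0.12), and the members' median was -0.22. Upper quartile scaling turned Atp6ap2 (-0.035) and Smpd1 (-0.027) and gave a median of 0.038. GC correction turned Atp6ap2 (-0.19), Lamp1 (0.097), Cd68 (0.0083), Gaa (0.10) and Psap (0.12), and unstranded counts turned Scarb2 (0.010). Leaving out each library gave ranges across 0 for Atp6ap2 (-0.014 to 0.14), Lamp1 (-0.043 to 0.0067), Scarb2 (-0.11 to 0.078) and Smpd1 (-0.14 to 0.27), none of which passed in any of these fits.

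Counts moved as follows. Of all tested genes, 13.8% were higher and 47.8% lower with library size alone, and 16% and 12.8% with DESeq2. These shares were 26.9% and 22.5% after GC correction and 22.2% and 30.6% with upper quartile scaling. Library size alone gave 11 members higher and 20 lower, for the V-ATPase 5 higher and 4 lower, for lumenal proteins 2 higher and for membrane proteins 5 lower. In the other lists it gave 7 V-ATPase genes lower, 5 hydrolase genes higher and 14 lower, 4 membrane genes higher, and 2 TFEB regulators higher and 11 lower. DESeq2 called 3165 genes, with 3 lumenal members higher and 1 membrane member lower, and in the other lists 6 hydrolase genes higher and 2 lower, 4 membrane genes higher and 8 lower, and 3 regulators higher. It called 0 other V-ATPase genes lower, with 1 at an unadjusted p below 0.05, against 1 called by edgeR. GC correction gave 2 V-ATPase members and 4 lumenal members lower, 2 transcription factors higher and 3 other V-ATPase genes lower, and upper quartile scaling gave 2 of the last. Leaving out each library gave 7 to 11 members lower, 3 to 6 lumenal members higher and 3 to 7 lower, 1 to 3 other V-ATPase genes lower, 7 to 12 other hydrolase genes higher and 5 to 9 lower, 5 to 6 other membrane genes higher, 2 to 6 regulators higher and a members' median of 0.13 to 0.19.

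The replicate numbers did not pair the libraries (r = -0.04 across 9992 genes between the replicate differences of both groups). A fit with the replicate block called 5171 genes, 18 members higher and 11 lower, and changed no member's call.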

Other observations

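The promoter windows were also searched on both strands for GAGGAAGT, a purine-rich run of the kind that PU.1 binds. It was found in 2 of the 37 members with a window (5.41%), Gla and Gusb, against 4.09% of tested genes and 3.20% of all windows. Neither Gla nor Gusb passed the edgeR test. Both groups carry the same PU.1 label, which the counts could not check, and wild-type cells were not analysed here, so a match bears on no comparison made here.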
